A study of Bos taurus with 8 samples.

Results

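The genes CCL2, CXCR4, ICAM1, CD14, TNFSF18 and TAP2, which act in leukocyte recruitment and innate immunity, were followed in cultured bovine endothelial cells given leukemia inhibitory factor (LIF). These 6 genes of the 25889 counted were taken by name from the deposited list of genes that the study called after LIF in choroidal cells, so they were selected on the LIF effect in choroidal cells, which is described below without a test. Sequenced RNA came from choroidal (BCE) and aortic (BAE) endothelial cells of cattle, in 4 groups of 2 libraries. BCE vehicle and BCE LIF cells were held for 3 h in low-glucose DMEM with 10% bovine calf serum, BAE vehicle and BAE LIF cells in the same medium with 1% serum, and then received either vehicle (PBS with 0.1% BSA, labelled as PBS) or LIF (10 ng/ml) for 6 h. Until then BCE cells had been kept in medium with bFGF and VEGF on fibronectin, and BAE cells in medium without these factors. Cell type, serum and earlier medium therefore changed together, and their parts in any difference between BCE and BAE cells cannot be told apart. BCE and BAE cells were purchased cultures, a single lot is named for BAE cells, and the study describes the 2 libraries of each group as biological replicates without saying how the cultures were separated.

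Recruitment of leukocytes runs in steps at the vessel wall: endothelial cells release or display chemokines, selectins slow the passing cell, and adhesion molecules such as ICAM1 hold it through its integrins before it crosses. Endothelial cells also sense microbial products and present peptides on MHC class I molecules. LIF is a cytokine of the interleukin 6 family that signals through its receptor LIFR and gp130 to the JAK kinases and STAT3.

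Library totals ranged from 18600598 to 35269335 counts, and 3 counts corresponded to between 0.0851 and 0.161 CPM, the count of a gene relative to the TMM-scaled library size. All 6 genes passed the filter on low counts in each comparison, with between 27 and 12744 counts in a library. Identifiers were Ensembl, and names rested on the best Swiss-Prot match of each gene, a bovine protein for CCL2, CXCR4, ICAM1 and CD14, a human protein for TNFSF18 and a mouse protein for TAP2. None of the 51 markers fixed for endothelial, leukocyte, mural, fibroblast, pigment and epithelial cells was paired with an identifier, so the labelled cell types were not checked against markers, and the part of other cell types in the levels of CD14 or CCL2 was not tested. In bulk RNA fewer cells that express a gene and less RNA per cell cannot be told apart.

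In BAE cells, whose libraries are not part of the contrast the selection used, ICAM1, CD14 and TAP2 rose after LIF and CCL2 and CXCR4 fell, while TNFSF18 had a higher level that did not pass the test. ICAM1 reached 2.77 times its vehicle level and CD14 2.07 times, and CCL2 dropped to 0.516 of its vehicle level. Thus 5 of the 6 genes passed an adjusted p of 0.05 over all genes, where 22.2% of the 13034 genes tested did so (13.6% higher and 8.55% lower). This count was 3 without BAE vehicle replicate 1, where CCL2 and TAP2 were lost, and 4 without BAE LIF replicate 1 or BAE LIF replicate 2, where TAP2 was lost. The median log2 fold change of the 6 genes was 0.49, against 0.00 over all genes tested. All 6 had both LIF libraries on the same side of both vehicle libraries, as did 61.2% of all genes tested. The study called the 6 genes after LIF in BCE cells, so the set leans toward genes that respond to LIF. All genes tested are therefore not a matched background for them. Tests were edgeR's quasi-likelihood test on TMM-scaled counts, and p-values were adjusted by the method of Benjamini and Hochberg over all genes tested.

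In vehicle-treated cells, CCL2, TNFSF18, CD14 and ICAM1 were higher in BCE than in BAE cells and CXCR4 was lower, while TAP2 was lower by a call that did not hold in 5 of 14 alternatives. CCL2 stood 10.7 times higher in BCE cells, TNFSF18 3.63 times, CD14 3.27 times and ICAM1 1.49 times. CXCR4 was at 0.248 and TAP2 at 0.843 of the BAE level. All 6 passed the test, but so did 53.8% of the 13426 genes tested (26.2% higher and 27.6% lower in BCE cells). The vehicle-treated BCE libraries also belong to the contrast that chose the genes. Each adjusted p of this comparison given below with a single gene carries that limit and is not free of the selection. The 2 groups did not overlap for any of the 6, against 77.3% of all genes.

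**Figure D1:**
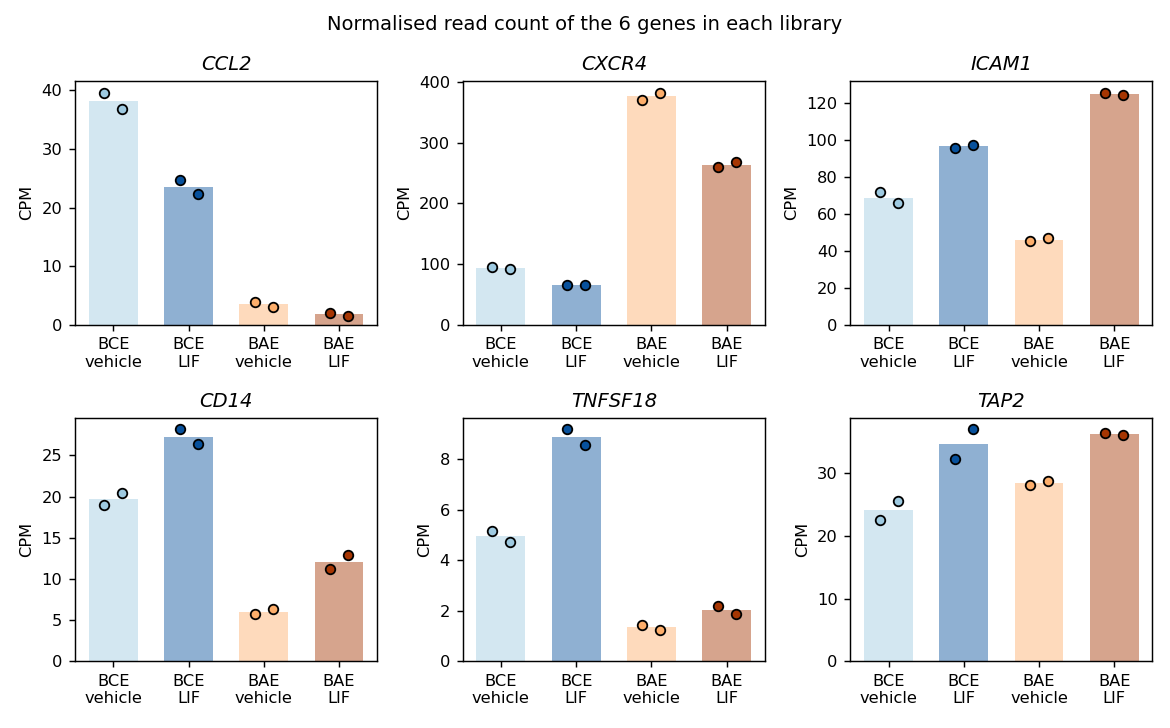
Normalised read count (CPM, TMM-scaled, linear axis from 0) of the 6 genes. Points are single libraries, with replicate 1 on the left, and bars are means of the 2 libraries of a group. CCL2, CD14 and TNFSF18 are higher in both BCE groups than in both BAE groups, CXCR4 is higher in BAE cells, and ICAM1 goes from the lowest group, BAE vehicle at 46.2 CPM, to the highest, BAE LIF at 125 CPM.

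CCL2 (ENSBTAG00000037811) encodes a chemokine that draws monocytes through the receptor CCR2. Its level was 39.6 and 36.9 CPM in the BCE vehicle libraries and 24.8 and 22.3 CPM in the BCE LIF libraries. In BAE cells it was 3.96 and 3.02 CPM with vehicle and 2.05 and 1.55 CPM with LIF. The order of the 4 groups was thus BCE vehicle, BCE LIF, BAE vehicle and BAE LIF, without overlap at any step, and the highest group mean was 21.2 times the lowest.

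In BCE cells the log2 fold change of CCL2 was -0.70 (standard error, SE, 0.0860), a mean of 38.3 ± 1.92 CPM with vehicle and 23.5 ± 1.73 CPM with LIF (SD, n = 2). In BAE cells it fell from 3.49 ± 0.661 to 1.80 ± 0.354 CPM (SD, n = 2), and the log2 fold change was -0.95 (SE 0.230, edgeR quasi-likelihood adjusted p = 0.00643). That change was the 129th lowest of the 13034 genes tested. The BAE libraries held 136 and 66 counts with vehicle and 43 and 40 with LIF, so the counting error alone of the LIF libraries was 15.2% and 15.8%. The exact 95% Poisson interval of the lower vehicle library, 2.34 to 3.85 CPM, overlapped that of the higher LIF library, 1.49 to 2.77 CPM (counting error only). With BAE vehicle replicate 1 left out, the log2 fold change was -0.76 and no longer passed the test (edgeR quasi-likelihood adjusted p = 0.0673 on the other 7 libraries). The difference between BCE and BAE vehicle cells was 3.42 on the log2 scale (SE 0.130, edgeR quasi-likelihood adjusted p = 7.31e-10). RefSeq places CCL2 beside the related chemokine genes CCL8 and CCL11, and how reads shared by similar genes were counted is not given in the sources used here.

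CXCR4 (ENSBTAG00000001060) encodes the receptor of the chemokine CXCL12, which guides leukocytes and also sprouting endothelial cells. Its order of the cell types was opposite to that of CCL2. The BAE vehicle libraries held 371 and 383 CPM and the BAE LIF libraries 259 and 269 CPM. The BCE vehicle libraries held 95.4 and 91.9 CPM and the BCE LIF libraries 65.8 and 65.4 CPM. No pair of groups overlapped, and every BAE library, with or without LIF, was above every BCE library.

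The log2 fold change of CXCR4 after LIF was -0.51 (SE 0.0571) in BCE cells, from 93.6 ± 2.49 to 65.6 ± 0.270 CPM (SD, n = 2). In BAE cells its log2 fold change was -0.48 (SE 0.0421, edgeR quasi-likelihood adjusted p = 2.94e-07), from 377 ± 8.38 to 264 ± 6.56 CPM (SD, n = 2). Expressed as a ratio, LIF left 0.701 of the vehicle level in BCE cells and 0.717 in BAE cells, with each cell type fitted alone. With all 8 libraries in 1 fit the log2 fold change was -0.51 in BCE cells and -0.51 in BAE cells. The difference of the 2 log2 fold changes, estimated over all 8 libraries as BCE minus BAE, was 0.00 with a 95% interval from -0.14 to 0.14. The level in BAE cells was 4.02 times that in BCE cells with vehicle and 4.02 times with LIF. The vehicle-treated cells differed by -2.01 on the log2 scale (BCE minus BAE, SE 0.0561, edgeR quasi-likelihood adjusted p = 4.66e-11).

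ICAM1 (ENSBTAG00000010303) encodes the endothelial ligand of leukocyte integrins in firm adhesion. The BAE vehicle libraries, at 45.4 and 47.0 CPM, were the lowest for this gene, and the BAE LIF libraries, at 126 and 124 CPM, the highest. Between them lay the BCE vehicle libraries at 72.0 and 65.8 CPM and the BCE LIF libraries at 95.8 and 97.5 CPM. The 4 groups did not overlap. The order of the cell types thus differed between the conditions: the mean in BCE cells was 1.49 times that in BAE cells with vehicle and 0.772 times with LIF.

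ICAM1 rose in BAE cells from 46.2 ± 1.15 to 125 ± 0.931 CPM (SD, n = 2). The log2 fold change of the fit was 1.47 (SE 0.0512, edgeR quasi-likelihood adjusted p = 6.28e-12), the 86th highest of the genes tested. In BCE cells the log2 fold change was 0.49 (SE 0.0623), from 68.9 ± 4.36 to 96.6 ± 1.15 CPM (SD, n = 2). The difference, BCE minus BAE, was -0.95 with a 95% interval from -1.12 to -0.78. It carries no p here, since the effect in BCE cells chose the gene. Vehicle-treated cells differed by 0.58 on the log2 scale (SE 0.0746, edgeR quasi-likelihood adjusted p = 4.33e-05). The vehicle-treated BCE libraries also took part in choosing the gene, so this p is not free of the selection.

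CD14 (ENSBTAG00000015032) encodes the co-receptor that hands bacterial lipopolysaccharide to TLR4. Monocytes and macrophages are its best known source, and cultured endothelial cells can also express it. The BCE LIF libraries held 28.2 and 26.4 CPM, the BCE vehicle libraries 19.0 and 20.5, the BAE LIF libraries 11.3 and 12.9, and the BAE vehicle libraries 5.70 and 6.37 CPM. The groups followed each other in that order without overlap, so that even LIF-treated BAE cells stayed below vehicle-treated BCE cells.

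In BAE cells CD14 rose from 6.03 ± 0.469 to 12.1 ± 1.17 CPM (SD, n = 2). The log2 fold change of the fit was 1.05 (SE 0.128, edgeR quasi-likelihood adjusted p = 1.34e-05), the 193rd highest of the genes tested. In BCE cells the change was from 19.7 ± 1.08 to 27.3 ± 1.28 CPM (SD, n = 2), a difference on the log2 scale of 0.47 (SE 0.0893). The difference of the LIF effects, BCE minus BAE, was -0.55 with a 95% interval from -0.88 to -0.21. The BCE level was 3.27 times the BAE level with vehicle (log2 1.71, SE 0.118, edgeR quasi-likelihood adjusted p = 1.61e-07) and 2.25 times with LIF.

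TNFSF18 (ENSBTAG00000047412), the ligand of GITR, a receptor found on T cells, is a TNF superfamily member that endothelial cells can display. The BCE libraries held 5.18 and 4.73 CPM with vehicle and 9.18 and 8.58 CPM with LIF, and the BAE libraries 1.45 and 1.24 CPM with vehicle and 2.2 and 1.86 CPM with LIF. Both BCE groups lay above both BAE groups, and LIF libraries above vehicle libraries in each cell type.

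The log2 fold change of TNFSF18 in BCE cells was 0.84 (SE 0.140), from 4.95 ± 0.317 to 8.88 ± 0.427 CPM (SD, n = 2), and was the largest increase of the 6 genes there. In BAE cells it was 0.60 (SE 0.264, edgeR quasi-likelihood adjusted p = 0.123), from 1.35 ± 0.154 to 2.03 ± 0.236 CPM (SD, n = 2). Its 95% interval, 0.04 to 1.16, held the BCE value, which is a description, since the BCE effect chose the gene. The BAE libraries had 50 and 27 counts with vehicle and 46 and 48 with LIF. The adjusted p stayed above 0.05 in all 14 alternatives, between 0.0592 and 0.400. The difference of the LIF effects, BCE minus BAE, was 0.28 with a 95% interval from -0.30 to 0.85. In vehicle-treated cells the log2 difference was 1.86 (SE 0.216, edgeR quasi-likelihood adjusted p = 1.73e-05).

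TAP2 (ENSBTAG00000003037) encodes a subunit of the peptide pump that, with TAP1, loads MHC class I molecules in the endoplasmic reticulum. Its levels were the most alike across groups, the highest mean being 1.51 times the lowest. The BCE libraries held 22.5 and 25.5 CPM with vehicle and 32.3 and 37.0 CPM with LIF. The BAE libraries held 28.1 and 28.8 CPM with vehicle and 36.4 and 36.1 CPM with LIF. Both LIF groups overlapped, whereas BAE vehicle lay below both of them and BCE vehicle below BAE vehicle.

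In BAE cells TAP2 rose from 28.4 ± 0.482 to 36.3 ± 0.200 CPM (SD, n = 2). The log2 fold change of the fit was 0.38 (SE 0.0729, edgeR quasi-likelihood adjusted p = 0.00103). With all 8 libraries in 1 fit it was 0.35 (edgeR quasi-likelihood adjusted p = 0.00900). This call was lost without BAE vehicle replicate 1, BAE LIF replicate 1 or BAE LIF replicate 2 (edgeR quasi-likelihood adjusted p = 0.0772, 0.0824 and 0.0714 on the other 7 libraries), with log2 fold changes of 0.34, 0.35 and 0.36. In BCE cells the log2 fold change was 0.53 (SE 0.0984), from 24.0 ± 2.14 to 34.6 ± 3.29 CPM (SD, n = 2). The difference of the effects was 0.17 with a 95% interval from -0.09 to 0.43. The vehicle-treated cells differed by -0.25 on the log2 scale (BCE minus BAE, SE 0.0951, edgeR quasi-likelihood adjusted p = 0.0456). With the DESeq2 test in its place the adjusted p was 0.106, with at least 10 counts in every library 0.0544 by edgeR, and without BCE vehicle replicate 1, BAE vehicle replicate 1 or BAE vehicle replicate 2 0.264, 0.0593 and 0.0766, so a difference in TAP2 between the cell types was not resolved.

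**Figure D2:**
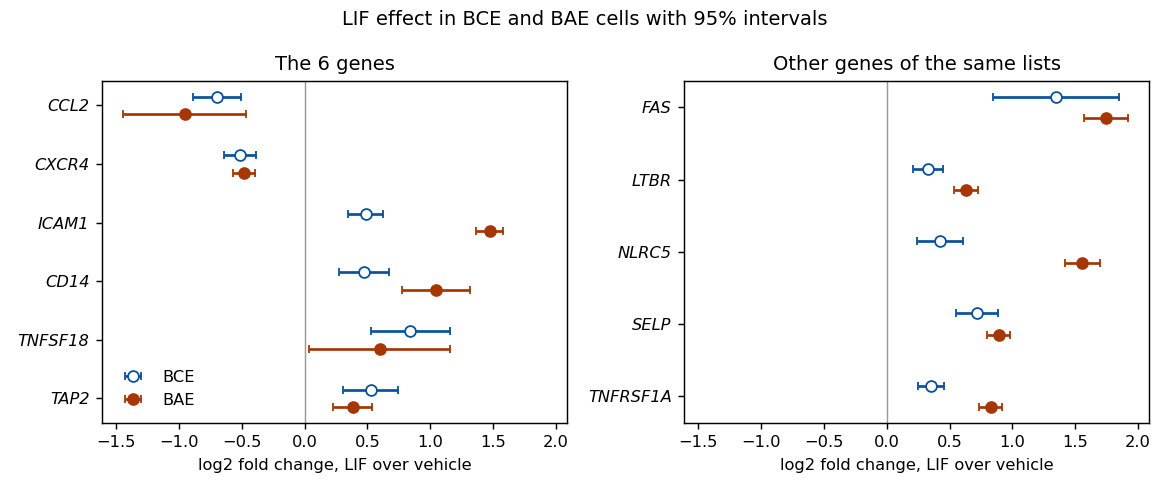
Log2 fold change after LIF (x axis) in BCE cells (open circles, the contrast that chose the genes) and BAE cells (filled circles), with 95% intervals from edgeR, for the 6 genes (left) and for 5 other genes of the same lists (right). CXCR4 has nearly the same value in both cell types, -0.51 and -0.48, whereas ICAM1 is at 0.49 in BCE and 1.47 in BAE cells.

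Set side by side, the 6 genes had the same sign of change in both cell types, 4 upward (ICAM1, CD14, TNFSF18 and TAP2) and 2 downward (CCL2 and CXCR4). In BCE cells their log2 fold changes lay between -0.70 and 0.84. Of 13014 genes tested there 0.922% passed the threshold (0.692% higher and 0.231% lower), and libraries of both groups were apart for all 6 genes and for 39.8% of all genes, from which nothing is read, since this contrast chose the genes. The difference of the LIF effects, BCE minus BAE, was -0.95 for ICAM1 and -0.55 for CD14, with the larger rise in BAE cells. For CCL2 it was 0.30 (95% interval -0.18 to 0.77), and for CXCR4, TNFSF18 and TAP2 it lay between 0.00 and 0.28. Over all 13646 genes this difference passed the threshold in 3.68% (1.16% higher and 2.52% lower in BCE cells), and it was not tested for the 6 genes. The 95% intervals for CCL2, CXCR4, TNFSF18 and TAP2 held 0, and neither cell type is described as having the larger change in these genes. Every difference holds the BCE effect that chose the genes. The intervals of all 6 genes, ICAM1 and CD14 included, are therefore descriptions and not tests. In 24 groups of 2 libraries, 4 for each gene, the coefficient of variation had a median of 5.25% and reached 19.6% for CCL2 in BAE LIF cells.

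**Figure D3:**
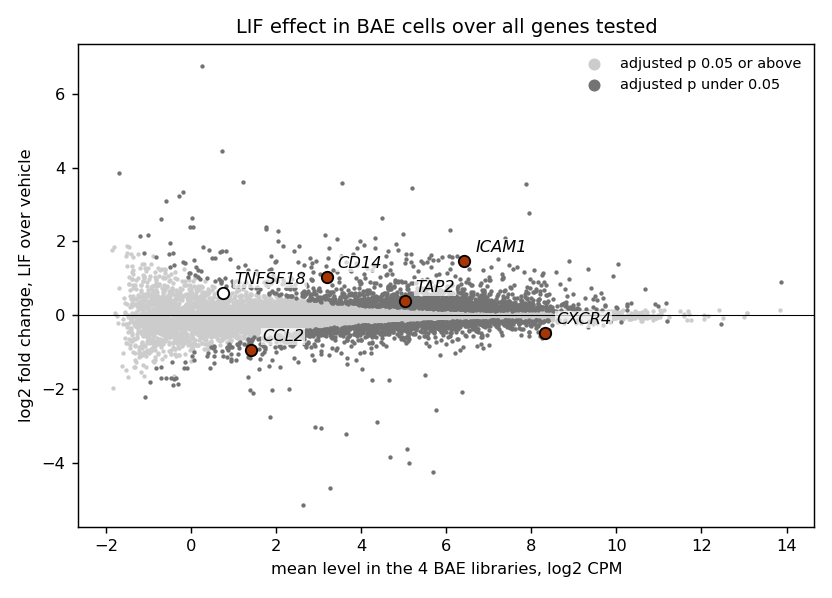
LIF effect in BAE cells for all 13034 genes tested, as log2 fold change (y axis) against the mean level in the 4 BAE libraries in log2 CPM (x axis). Grey shades divide genes at an adjusted p of 0.05, filled circles mark the 5 genes past it and the open circle TNFSF18, at a log2 fold change of 0.60.

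The gap between the cell types with and without LIF is given as a description, since it holds the BCE libraries that chose the genes. The ratio of the BCE to the BAE mean went from 11 with vehicle to 13 with LIF for CCL2, and from 3.68 to 4.37 for TNFSF18, with ranges over single library pairs of 9.33 to 13.1 and 10.9 to 15.9 for CCL2 and of 3.25 to 4.19 and 3.90 to 4.93 for TNFSF18. For CXCR4 it was 0.248 in both conditions. For CD14 it went from 3.27 to 2.25, with pair ranges of 2.98 to 3.59 and 2.04 to 2.50, and for ICAM1 from 1.49 to 0.772, with pair ranges of 1.40 to 1.59 and 0.762 to 0.783. For TAP2 the ratio was 0.846 with vehicle and 0.955 with LIF, where the pair range from 0.888 to 1.02 held 1.

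**Figure D4:**
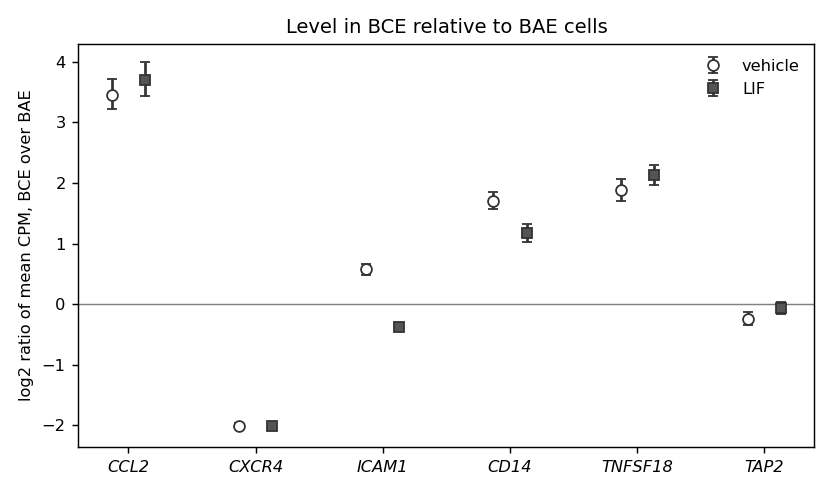
Log2 ratio of the mean CPM in BCE over BAE cells with vehicle (open circles) and with LIF (filled squares). Bars span the 4 pairs of single libraries. ICAM1 crosses 0, from 0.58 with vehicle to -0.37 with LIF, and CXCR4 stays at -2.01.

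The other genes of these pathways could be followed only in small part. Lists of chemokines, chemokine receptors, leukocyte adhesion, pattern recognition, class I presentation and TNF superfamily genes held 192 symbols, of which 11 had an identifier, the 6 genes above and SELP, NLRC5, TNFRSF1A, FAS and LTBR. These too have names because the study called them in BCE cells, so the set leans toward genes that respond to LIF. No further chemokine, chemokine receptor or pattern recognition gene was among them. In BAE cells all 5 of these rose past the threshold, as did 13.6% of all genes tested, and their median change was 0.89 on the log2 scale, against 0.00 over all genes.

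SELP, the P-selectin that slows rolling leukocytes, rose in BAE cells from 223 ± 5.90 to 404 ± 0.990 CPM (SD, n = 2). The log2 fold change of the fit was 0.89 (SE 0.0420, edgeR quasi-likelihood adjusted p = 1.50e-10). Its levels in BCE cells were 150 ± 18.2 with vehicle and 247 ± 8.27 CPM with LIF (SD, n = 2). SELP and ICAM1, the 2 adhesion genes with an identifier, thus both rose in BAE cells. In vehicle-treated cells SELP was lower in BCE cells (log2 -0.57) and ICAM1 higher.

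NLRC5, a transactivator of MHC class I genes, rose in BAE cells from 25 ± 0.448 to 71.7 ± 2.62 CPM (SD, n = 2). The log2 fold change of the fit was 1.56 (SE 0.0665, edgeR quasi-likelihood adjusted p = 4.82e-11). TAP2, beside NLRC5, had the smaller log2 fold change of these class I genes at 0.38. In BCE cells the log2 fold changes were 0.42 for NLRC5 and 0.53 for TAP2. Like ICAM1, NLRC5 was higher in BCE cells with vehicle, 1.32 times the BAE mean, and lower with LIF, 0.616 times.

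Among the TNF superfamily receptors, FAS rose in BAE cells on the log2 scale by 1.74, TNFRSF1A by 0.83 and LTBR by 0.63 (edgeR quasi-likelihood adjusted p = 1.74e-10, 3.13e-10 and 2.90e-08). FAS transmits death signals, TNFRSF1A binds TNF and LTBR binds lymphotoxin. TNFSF18, the sole ligand of the list with an identifier, was the only gene of this list that did not pass in BAE cells. In vehicle-treated cells FAS was lower in BCE than in BAE cells (log2 -2.51), as CXCR4 was, and TNFRSF1A and LTBR were higher (0.56 and 0.24). All passed the threshold, as did 53.8% of all genes tested (26.2% higher and 27.6% lower in BCE cells). The vehicle-treated BCE libraries also belong to the contrast that gave these genes their names.

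The course of each gene over the 8 libraries was compared with that of the 110 other genes with a name, as Pearson's r of log2(CPM + 0.5). These values are descriptions, since the points share 2 cell types and the same libraries, and since all named genes were called by the study in BCE cells. CCL2 was most like PLK2, SLCO2B1 and SOCS2 (r = 0.998, 0.995 and 0.990). CXCR4 was most like THSD1 (0.996), and ICAM1 was most like AHR, MTUS1 and DDX21 (0.994, 0.993 and 0.988). CD14 followed SLC23A2, VLDLR and IL4R (0.996, 0.995 and 0.994), and TNFSF18 followed NDRG1, CELF4 and LRRC32 (0.987, 0.984 and 0.980). The values for TAP2 were lowest, 0.927 with GPC1, 0.910 with OSMR and 0.888 with SETMAR. With each cell type centred on its own mean, the first of these r were 0.980 for CCL2 and PLK2, 0.951 for CXCR4 and THSD1, 0.996 for ICAM1 and AHR, 0.982 for CD14 and SLC23A2, 0.911 for TNFSF18 and NDRG1 and 0.933 for TAP2 and GPC1.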

How the data were processed

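RNA of 8 libraries (BCE and BAE cells, LIF or vehicle, 2 libraries each) was analysed, with groups and replicate numbers taken from the sample titles. Paired-end reads were mapped by the authors on the assembly UMD 3.1 with TopHat2 (version 2.0.12, on a Bowtie2 index, version 2.2.3), counted reads per gene with HTSeq (version 0.6.1) and deposited raw counts without normalization. Strand setting, annotation release and treatment of reads shared between genes are not given in the sources used here. The authors also deposited a table of genes called in BCE cells with DESeq (version 1.18.0), holding group means, fold changes and p-values. Only its gene names were used, together with those of a supplementary list. The table deposited for BAE cells is identical to it and was not used.

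The tests used edgeR (version 4.0.16, under R version 4.3.3) with filterByExpr (minimum count 10, total 15), TMM scaling, quasi-likelihood tests and a Benjamini-Hochberg threshold of 0.05, each comparison on its own 4 libraries. The difference of the LIF effects used all 8. Standard errors were derived from log2 fold change and F, and 95% intervals from the t distribution with the fit's degrees of freedom. CPM values used TMM factors of all 8 libraries, and ± is the SD of 2 libraries. Folds and log2 fold changes of a fit on its own 4 libraries can therefore differ slightly from the ratio of the CPM means. Library totals, from 18600598 to 35269335 counts, set the precision, and Poisson intervals cover counting error only. Replicates of each group differed beyond counting noise, so none was counted as a copy. Their chi-square over degrees of freedom was 10.2 for BCE vehicle, 2.6 for BCE LIF, 5.9 for BAE vehicle and 4.4 for BAE LIF. These values cannot show whether the cultures were separate, since they are set against counting noise only.

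The genes and lists were chosen with earlier results of these data known. Named genes were the 6 genes, all 5 other genes of the lists with an identifier, and similar genes. Those 5 have identifiers because the study called them in BCE cells, so its threshold there had a part in the choice. Beyond that, threshold, overlap and size of change had none. The similar genes were the 3 most similar named genes with a mean of at least 1 CPM for each of the 6. A few results on other genes are not reported here. Alternatives were DESeq2 size factors, the DESeq2 test (version 1.42.0), no filter, at least 10 counts in every library, a replicate block, all 8 libraries in 1 fit, and each library left out of that fit. Neither sequences nor genome coordinates are printed, since no genome of the files' build was used here; neighbouring genes come from RefSeq on ARS-UCD2.0. Levels were not compared between genes, since gene lengths were not used.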

Additional observations from a re-analysis of the deposited data

How the results depend on the processing

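With 2 libraries a group, the spread of each gene rested largely on information shared across genes, and TNFSF18 and CCL2 had between 27 and 136 counts in the BAE libraries. The log2 fold changes of the 6 genes kept their sign in every alternative for the LIF effect in either cell type and between vehicle-treated cells, and only the difference of the CXCR4 effects, near 0, changed sign (-0.05 to 0.03). Among the values of the 6 genes under alternatives, 320 kept their side of the threshold or moved by less than the replicate spread, 9 lost the call, all of CCL2 or TAP2 and given with those genes, and 1 moved by more than the replicate spread (CXCR4 in BCE cells, -0.47 without BCE vehicle replicate 1). The cause was not tested.

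Of all genes, 2889 passed for LIF in BAE cells, against 1886 with the DESeq2 test and 2461 with all 8 libraries in 1 fit. Single libraries were left out of that joint fit, so such counts are read against it, and they ran from 1294 to 3000 (1337 without BAE vehicle replicate 1, 1719 without BAE vehicle replicate 2, 1294 without BAE LIF replicate 1 and 1526 without BAE LIF replicate 2). Of the 6 genes, 3 to 5 then passed, with 3 without BAE vehicle replicate 1. For vehicle-treated cells 5 to 6 passed. For LIF in BCE cells 120 genes passed, against 437 without the filter and 217 in the joint fit, and from that fit 85 to 692 with single libraries left out (692 without BCE vehicle replicate 1, 85 and 93 without BCE LIF replicates 1 and 2). For the difference of the effects 502 passed, against 889 without the filter and 261 to 948 with single libraries left out (948 without BCE vehicle replicate 1, 292 and 272 without BCE LIF replicates 1 and 2, 281 without BAE vehicle replicate 1, and 261 and 293 without BAE LIF replicates 1 and 2).

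Replicate numbers came from the sample titles. The deposited library names of replicate 1 carry unlike numbers for vehicle and LIF, while those of the other replicate carry the same number in every group. Whether same-numbered libraries came from paired cultures was therefore not resolved. Deviations of same-numbered libraries correlated at -0.0366 for LIF in BAE cells, 0.145 in BCE cells and -0.0683 between vehicle-treated cells. With the replicate block 2887 genes passed in BAE cells (2889 without it) and 226 in BCE cells (120 without it). Between vehicle-treated cells 7049 passed (7223 without it) and for the difference 669 (502 without it). The same 5 and 6 of the 6 genes passed in BAE and between vehicle-treated cells.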
